A study of Mus musculus with 6 samples.

Results

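CHD7 regions that lay inside protein-coding genes, away from the gene ends, were examined in cardiac neural crest cells of the mouse. They overlapped no called peak of acetylation of lysine 27 on histone H3 (H3K27ac), which is what lacking H3K27ac means below. There were 2056 such regions among 19947 CHD7 consensus regions in all (10.3%). They were selected on measured values: both CHD7 libraries had a peak in the region, and neither H3K27ac library nor either input library had one. In addition, each region lay more than 1 kb from every end of the RefSeq protein-coding genes and overlapped the body of at least 1 of them. Of the 4813 gene-body CHD7 regions, 42.7% met the rule. The remainder were 2683 with an H3K27ac peak in at least 1 library and no input peak, 29 that lacked H3K27ac but held an input peak, and 45 that held both. These counts follow from the rule and carry no test.

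The chromatin came from embryos at E10.5, in mid-gestation, that carried the Wnt1-Cre2 transgene, whose Wnt1 regulatory sequences drive Cre recombinase in the neural crest lineage, and the mTmG reporter, which switches to green fluorescent protein after recombination. Green cells were sorted by flow cytometry from pharyngeal arches 3 to 6, and no cells of another genotype or lineage were included in any group. The 3 groups were chromatin precipitated with an antibody to CHD7, chromatin precipitated with an antibody to H3K27ac, and input chromatin, with 2 libraries each, numbered 1 and 2. Whether the paired libraries of a group stem from different embryos or different sorts is unstated in the labels, so their spread may be technical. How many embryos each library pooled was not given in the sources used here.

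CHD7 is an ATP-dependent chromatin remodeller with chromodomains that bind methylated lysine 4 of histone H3, and mutations in its human gene cause CHARGE syndrome, in which outflow tract and arch artery defects are frequent. Cardiac neural crest cells migrate through the caudal pharyngeal arches and build the smooth muscle of the arch arteries and the septum of the outflow tract. H3K27ac is placed by the acetyltransferases p300 and CBP and is found at active promoters and enhancers. A site of a remodeller inside a gene can be an internal promoter, an enhancer or another kind of element, and the peak lists do not tell these apart.

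Few of the regions lay on an annotated transcription start. RefSeq promoter windows were available for 32851 starts of 27025 genes on build GRCm38.p6, and the first base of transcription lay in 52 of the 2056 regions (2.53%), against 469 of the 2683 gene-body CHD7 regions with H3K27ac (17.5%). A start within 1 kb was found for 8.46% of the regions lacking H3K27ac and 39.2% of those with it. Intergenic CHD7 regions lacking H3K27ac were low as well: of 2426, 1.98% held a start and 4.58% had one within 1 kb. In each library's own gene-body CHD7 peaks the shares with a start within 1 kb were 7.61% and 8.49% without H3K27ac and 36.3% and 39.4% with it, in libraries 1 and 2. The difference thus exceeded the spread between the CHD7 libraries in both. Both were classed against the same joined peaks of the 2 H3K27ac libraries, so this spread holds no variation between H3K27ac libraries. The exact paired permutation test over 2 libraries gives p = 0.5, the smallest it allows, two-sided, here and in every such comparison of the regions. Of the 52 regions, 37 held a start of a protein-coding gene and 16 a start of a non-coding gene, with 1 region, in Egr2, holding both kinds.

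The sequences of 6 such internal starts are shown because they are the places where a region lacking H3K27ac can be tied to a defined promoter. They are the 250 bases before the start on the gene's own strand, from RefSeq on GRCm38.p6, with CpG dinucleotides in capitals. Shroom2, Slc29a1 and Tdrd7 are among the protein-coding genes with the strongest regions at a start, and Sox6, Wnt11 and Nrxn3 are developmental or neuronal genes chosen after their values were seen. All 250 bases lay within the CHD7 region in each of the 6.

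Shroom2 (chrX:152644549-152644798, minus strand): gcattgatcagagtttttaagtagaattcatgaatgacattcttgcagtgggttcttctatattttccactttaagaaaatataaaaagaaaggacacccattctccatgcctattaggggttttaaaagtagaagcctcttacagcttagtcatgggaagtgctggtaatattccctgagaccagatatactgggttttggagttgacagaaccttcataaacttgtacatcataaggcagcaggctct
Slc29a1 (chr17:45595247-45595496, minus strand): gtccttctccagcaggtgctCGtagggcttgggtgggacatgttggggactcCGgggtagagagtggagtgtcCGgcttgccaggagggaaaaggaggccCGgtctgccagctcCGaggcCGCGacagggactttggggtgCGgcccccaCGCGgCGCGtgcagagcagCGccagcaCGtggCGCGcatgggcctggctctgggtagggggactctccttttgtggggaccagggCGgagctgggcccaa
Tdrd7 (chr4:45972581-45972830, plus strand): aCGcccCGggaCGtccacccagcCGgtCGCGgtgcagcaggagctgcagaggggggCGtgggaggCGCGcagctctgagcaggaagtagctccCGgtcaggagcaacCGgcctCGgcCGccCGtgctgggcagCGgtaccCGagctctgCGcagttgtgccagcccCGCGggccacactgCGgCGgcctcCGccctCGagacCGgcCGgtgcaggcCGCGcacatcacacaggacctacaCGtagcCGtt
Sox6 (chr7:115824711-115824960, minus strand): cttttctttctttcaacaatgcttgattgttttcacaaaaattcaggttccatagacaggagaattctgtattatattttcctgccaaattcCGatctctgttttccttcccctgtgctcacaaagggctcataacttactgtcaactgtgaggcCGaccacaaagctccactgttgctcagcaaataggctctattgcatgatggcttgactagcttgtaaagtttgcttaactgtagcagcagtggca
Wnt11 (chr7:98838595-98838844, plus strand): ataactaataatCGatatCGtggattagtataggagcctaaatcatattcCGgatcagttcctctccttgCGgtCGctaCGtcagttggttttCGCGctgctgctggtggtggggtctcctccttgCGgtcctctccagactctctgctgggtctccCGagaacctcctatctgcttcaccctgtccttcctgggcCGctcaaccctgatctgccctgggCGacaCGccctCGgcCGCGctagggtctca
Nrxn3 (chr12:89812233-89812482, plus strand): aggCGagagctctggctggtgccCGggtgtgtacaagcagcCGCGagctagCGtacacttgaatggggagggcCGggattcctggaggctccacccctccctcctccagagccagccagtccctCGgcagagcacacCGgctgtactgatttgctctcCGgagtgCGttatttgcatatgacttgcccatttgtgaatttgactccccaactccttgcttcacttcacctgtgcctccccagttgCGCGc

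These starts spanned the range from CpG-free to CpG-rich. The Shroom2 window had 0 CpG dinucleotides and a G+C content of 38.0%, and that of Sox6 had 2 CpG at 41.6% G+C. Nrxn3 had 12 CpG at 60.0% G+C, Wnt11 16 at 56.8%, Slc29a1 17 at 68.8% and Tdrd7 29 at 73.2%. Over the 58 starts in the regions, the median G+C content was 56.2% and the median ratio of observed to expected CpG was 0.548. The 556 starts in gene-body CHD7 regions with H3K27ac had medians of 60.8% and 0.712, and all 32851 windows had 52.4% and 0.374. The 54 starts in intergenic CHD7 regions lacking H3K27ac had 49.6% and 0.452. Searched on both strands, the CCAAT box (letters CCAAT) was found in 29.3% of the 58 windows, against 26.6% of the 556 and 33.8% of all. The GC box, with the letters GGGCGG, was in 36.2% of the 58, against 53.6% of the 556 and 32.7% of all. The TATA box, with the letters TATAAA, was in 6.90%, against 5.76% and 12.4%. The E-box with the letters CACGTG was in 6.90%, against 8.09% and 6.02%. None of these motifs contains another, and a match is a description of the sequence only.

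CHD7 enrichment at the printed starts was modest. The fold enrichment, a ratio over local background that the authors' peak caller gave for each peak, was 4.20 and 3.96 in CHD7 libraries 1 and 2 at Shroom2, the gene of an actin-binding protein, 124 kb from the nearest H3K27ac peak. It was 4.07 and 3.77 at Slc29a1, a nucleoside transporter gene, 5.85 kb from H3K27ac, and 3.35 and 3.83 at Tdrd7, a Tudor domain gene, 82.5 kb away. Sox6, a SoxD transcription factor gene, had 3.08 and 2.91, and Wnt11, a ligand gene of non-canonical WNT signalling, had 2.76 and 2.61. Nrxn3, a presynaptic adhesion gene, had 2.99 and 2.65 at a start 522 kb from the nearest gene end and 631 kb from H3K27ac. Egr2, the gene of a zinc finger factor of hindbrain and neural crest also known as Krox20, had 3.13 and 2.98 in a region of 67535480 to 67536560 on chromosome 10 that held a start of Egr2 and 1 of the non-coding gene Gm32255. Its nearest H3K27ac peak lay 11.5 kb away.

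The regions lacking H3K27ac were mostly of moderate strength, with a short tail of strong ones. Their median fold was 3.15 in library 1 and 3.13 in library 2, with the middle 80% between 2.47 and 4.37 and between 2.49 and 4.34. The mean of both libraries was under 3 in 790 regions (38.4%), between 3 and 4 in 987 (48.0%) and over 4 in 279 (13.6%). It passed 6 in 44 and 8 in 14. For the same region, the higher fold exceeded the lower by a median factor of 1.14, by more than 1.5 in 78 regions (3.79%), and at most by 2.46. The rule asked for a peak in both libraries and most folds fell in a narrow range, which keeps this factor small. It is therefore no measure of agreement between the libraries. Their highest points lay within 100 bp of each other in 55.2% of the regions. Library 1 was the higher in 1092 regions (53.1%). Across regions, which are not independent replicates, Spearman's rank correlation between the libraries was 0.53.

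The 10 strongest regions had mean folds between 8.75 and 12.2, and in all 10 the libraries differed by an SD of at most 1.12. The first lay in Acvr1b, which encodes the type I activin receptor ALK4, at 101196073 to 101196825 on chromosome 15, with folds of 12.5 and 11.97 in libraries 1 and 2 (mean 12.2 ± 0.36, SD, n = 2). The second lay in Ppp1r9a, the gene of the neuronal actin-binding scaffold neurabin, at 4923698 to 4924368 on chromosome 6, with 12.1 and 11.1. The third lay in D7Ertd443e at 134423746 to 134424365 on chromosome 7, with 10.7 and 12.3. All 3 had a fold over 10 in both libraries, as did the regions in Kif6, Grip1, Sorcs2 and Bicc1 below. The higher value was in library 1 for Acvr1b and Ppp1r9a and in library 2 for D7Ertd443e.

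The other 7 lay in genes of varied function. Kif6, a kinesin gene, had folds of 10.4 and 11.6, Grip1, a scaffold of glutamate receptors, 11.1 and 10.7, and Sorcs2, a receptor of the sortilin family, 11.1 and 10.6. Bicc1, an RNA-binding protein gene, had 10.6 and 10.4. Nicn1, of a tubulin polyglutamylase complex, had 8.48 and 10.02, Nrap, a striated muscle anchoring protein gene, 8.11 and 9.63, and Macroh2a1, which encodes the histone variant macroH2A, 8.39 and 9.12. The 10 regions were sharply placed: the highest points of the libraries lay between 2 and 42 bp apart, with a median of 6.50 bp, against a median of 86.5 bp over all 2056. The nearest H3K27ac peak lay between 1.06 kb (Nrap) and 177 kb (D7Ertd443e) away. The input peak nearest to any of the 10 lay 521 kb away, from the Sorcs2 region.

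**Figure D1:**
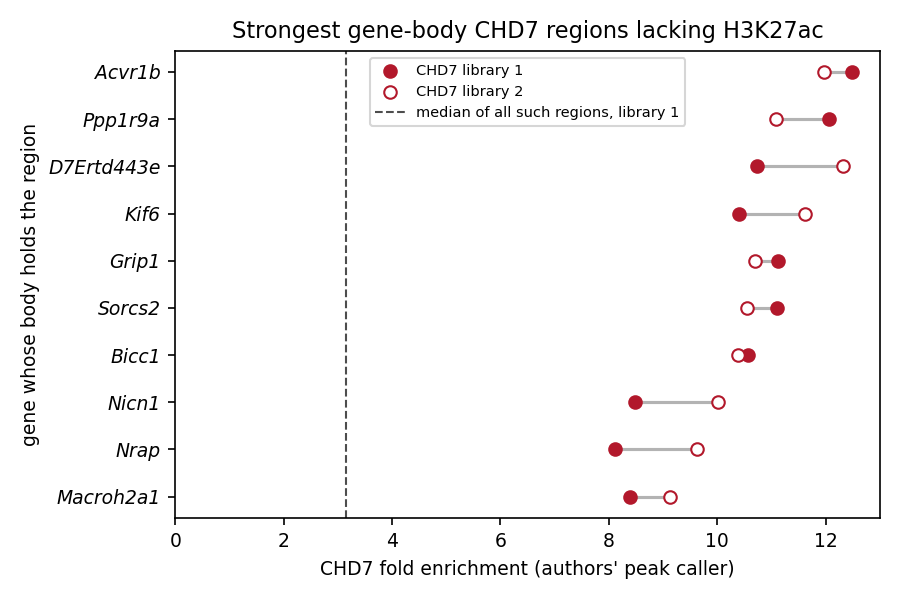
CHD7 fold enrichment (horizontal axis, a ratio given by the authors' peak caller) of the 10 strongest gene-body CHD7 regions lacking H3K27ac, named by the gene that holds them, in CHD7 library 1 (filled points) and library 2 (open points), joined by a line. All points lie between 8.11 and 12.5, to the right of the dashed line at 3.15, the median of all 2056 regions in library 1.

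Input peaks were more common among strong regions. Before regions with an input peak were left out, 6 of the 20 strongest gene-body CHD7 regions lacking H3K27ac (30.0%) held one, as did 8 of the next 80 (10%), 11 of the next 400 (2.75%) and 4 of the remaining 1585 (0.252%). The 29 left out for this reason had median folds of 4.85 and 4.99 in libraries 1 and 2, and their highest points lay a median of 14 bp apart. The 45 gene-body CHD7 regions with both H3K27ac and an input peak were stronger, with median folds of 8.56 and 7.66, a maximum of 18.3 and 17.0, and a mean fold over 5 in 36 of them. The part of input signal in the strong regions that were kept was not tested.

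Set beside gene-body CHD7 regions with H3K27ac, the regions lacking it were slightly weaker and narrower. The median fold was 3.15 and 3.13 without H3K27ac and 3.34 and 3.296 with it, in libraries 1 and 2, a log2 difference of −0.08 ± 0.0065 (SD, n = 2 libraries; exact paired permutation p = 0.5). The difference turned round under a cut on the q-value. When only CHD7 peaks with −log10 q at or above 10 were used, it was 0.17 ± 0.05, now higher without H3K27ac, over 137 regions that lacked it, and 0.16 with regions that held an input peak kept in both classes. The cut was made on the same CHD7 peaks whose fold was compared, so it bears on the medians of both classes. Without the cut, the difference was −0.02 for regions more than 10 kb from gene ends and −0.04 when no H3K27ac peak was allowed within 1 kb. Median peak width was 487 and 442 bp without H3K27ac and 568 and 532 bp with it, a difference of −86.0 ± 6.36 bp. Regions with H3K27ac in a single library, 597 in number, had median folds of 3.11 and 3.09, lower than the 3.41 and 3.37 of the 2086 with H3K27ac in both. The intergenic CHD7 regions lacking H3K27ac, 49.1% of the 4937 between genes, had median folds of 3.32 and 3.23, and their widths were 509 and 467 bp. Lacking H3K27ac was less common at gene ends, with 12.9% of 10197 regions.

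**Figure D2:**
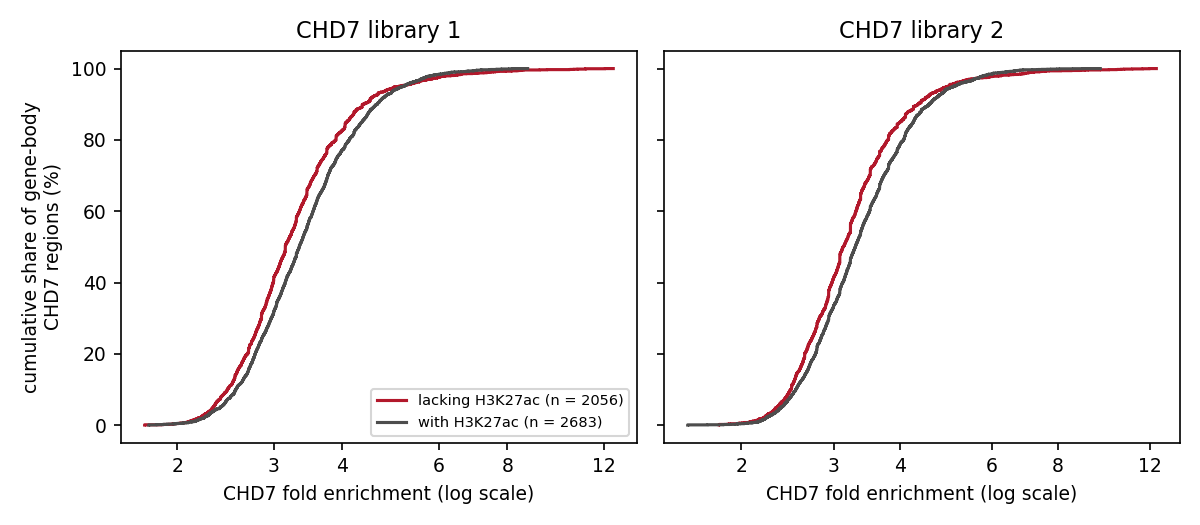
Cumulative share of gene-body CHD7 regions (vertical axis, percent) by CHD7 fold enrichment (horizontal axis, log scale), lacking H3K27ac (red, 2056 regions) and with it (grey, 2683 regions), in CHD7 library 1 (left) and library 2 (right). The red curve lies to the left over most of its length, with medians of 3.15 against 3.34 in library 1, and its highest value is 12.5 against 8.71. Regions with an input peak are not drawn, and those that also had H3K27ac reached 18.3 in library 1.

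The share of regions lacking H3K27ac was lower in the stronger classes of CHD7 fold. Over the gene-body CHD7 regions without an input peak, 51.7% of the weakest 10% lacked H3K27ac, and 32.9% of those in the ninth of 10 equal classes. In the strongest class the share was 35.2%. The make-up of the very strongest regions turned on the treatment of input peaks. With regions that held an input peak left out, 9 of the 10 strongest lacked H3K27ac, as did 15 of the 20 strongest and 55 of the 100 strongest. With them kept, a ranking added after the data were seen, 0 of the 10 strongest lacked H3K27ac, 4 of the 20 strongest and 47 of the 100 strongest, and all of those 10 held an input peak. Peaks of the single libraries gave shares of 57.0% and 52.2% of gene-body CHD7 peaks lacking H3K27ac (mean 54.6% ± 3.43, SD, n = 2), higher than over the consensus regions.

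Taken over genes of all lengths together, the regions lacking H3K27ac were spread nearly evenly along the gene. Those with H3K27ac gathered towards the 5′ end. The rule keeps regions within 1 kb of a gene end out of both classes. Position could be given for 1620 regions lacking H3K27ac and 2119 with it, those in a single gene whose strand the promoter windows give. The median position was 49.1% of the gene length from the 5′ end without H3K27ac and 35.2% with it. Each 10% of the gene held between 8.33% and 10.9% of the regions lacking H3K27ac. For those with H3K27ac, the first 10% held 21.0% and the last 5.38%. In the libraries' own peaks the median positions were 49.0% and 49.6% without H3K27ac and 35.7% and 33.8% with it (exact paired permutation p = 0.5). In genes over 500 kb the order turned round, with a median position of 53.4% for 248 regions lacking H3K27ac and 61.1% for 169 with it.

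**Figure D3:**
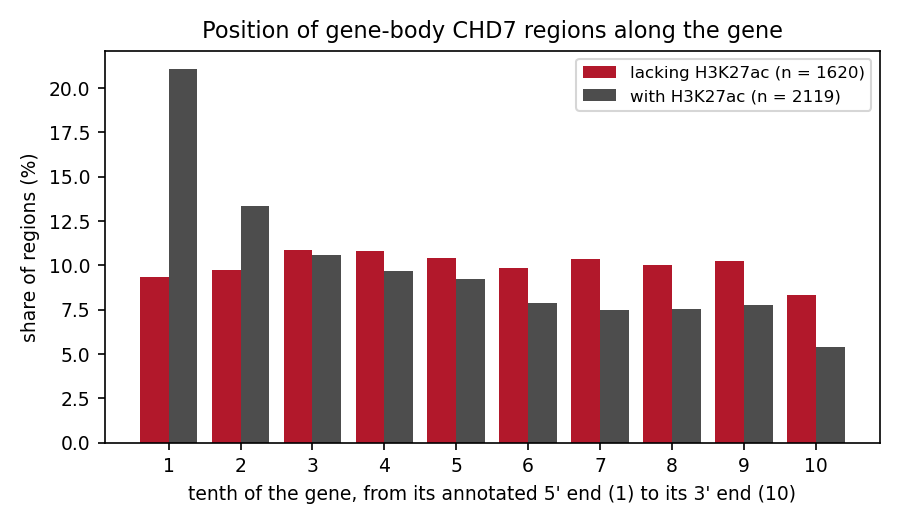
Share of gene-body CHD7 regions (vertical axis, percent) in each 10% of the gene from its 5′ end (1) to its 3′ end (10), lacking H3K27ac (red, 1620 regions) and with it (grey, 2119 regions). Red bars stay between 8.33% and 10.9%, and grey bars decline to 5.38% at the 3′ end, against 21.0% at the 5′ end.

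Most regions lay far from gene ends and from H3K27ac. The median distance to the nearest gene end was 29.8 kb, against 12.5 kb for gene-body CHD7 regions with H3K27ac, and 403 regions (19.6%) lay more than 100 kb from any end, against 8.65%. The nearest H3K27ac peak of either library lay at a median of 22.6 kb. Judged in H3K27ac libraries 1 and 2 singly, the medians were 27.7 and 30.9 kb (mean 29.3 ± 2.22 kb, SD, n = 2), against 33.2 and 37.7 kb for intergenic CHD7 regions lacking H3K27ac. The distances fell into a main group and a small near one. H3K27ac lay within 1 kb of 260 regions (12.6%), between 1 and 10 kb of 365, between 10 and 100 kb of 1143 and beyond 100 kb of 288 (14.0%).

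Among the regions lacking H3K27ac, CHD7 fold was lowest in those nearest to an H3K27ac peak. The median was 2.94 and 2.93 in libraries 1 and 2 for regions within 1 kb of H3K27ac, 3.06 and 3.05 at 1 to 10 kb, 3.19 and 3.18 at 10 to 100 kb, and 3.42 and 3.30 beyond 100 kb, an order that both libraries kept. The most remote region lay in Tecrl, a gene with cardiac function in humans, 2330 kb from H3K27ac, with folds of 3.75 and 4.74. It was followed by regions in Epha5, an ephrin receptor gene (1783 kb, folds 2.85 and 2.49), and Mgat4c, a glycosyltransferase gene (1310 kb, folds 4.20 and 3.62). Another CHD7 region lay within 10 kb of 443 regions lacking H3K27ac (21.5%) and of 35.1% of the gene-body regions with it. For intergenic CHD7 regions lacking H3K27ac the share was 22.9%.

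**Figure D4:**
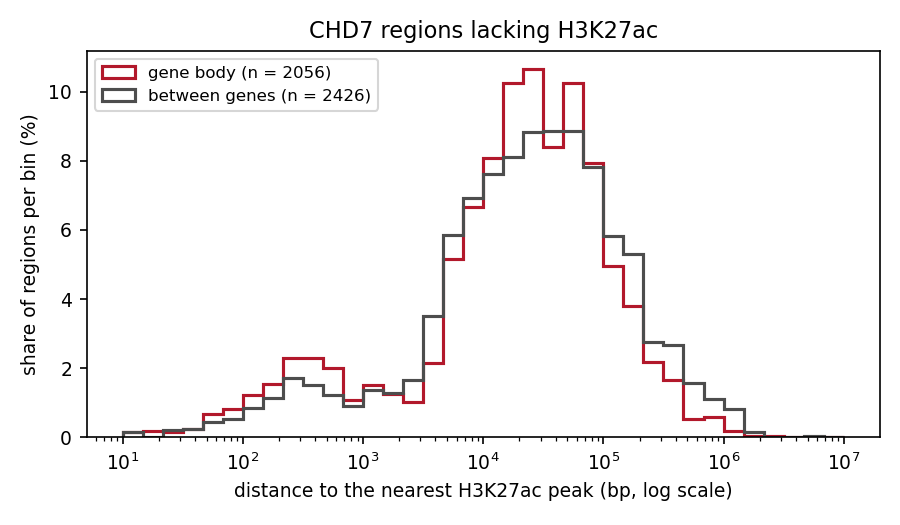
Distance to the nearest H3K27ac peak of either library (horizontal axis, bp, log scale) for CHD7 regions lacking H3K27ac in gene bodies (red, 2056 regions) and between genes (grey, 2426 regions), as the share of regions in each bin (vertical axis, percent). Both outlines have a low hump below 1 kb and a main hump around the medians of 22.6 kb in gene bodies and 26.1 kb between genes.

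The limit of 1 kb from a gene end cut through a continuous range. The members nearest to it lay 1006 bp from an end of 1810009A15Rik (folds 2.34 and 1.97), 1011 bp from Traf3ip2 (3.37 and 2.89) and 1011 bp from Egr2. Just outside it, and otherwise alike, were regions 999 bp from an end of Cers1 (2.64 and 2.62), 987 bp from Nav1 (3.01 and 2.24) and 985 bp from Fzd5 (2.77 and 3.19). The weakest members lay in Hoxd3 (1.74 and 1.88), Nexn (1.87 and 1.98) and Srrm2 (1.96 and 1.89).

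The regions lay in 1506 of 21776 protein-coding genes (6.92%), and long genes held most of them. Of the genes under 10 kb, 0.827% held at least 1 region, as did 5.41% of those of 10 to 100 kb, 31.2% of those of 100 to 500 kb and 58.6% of the 227 of 500 kb and over. In genes of 100 kb and over the share was 33.7%. Host genes had a median length of 111 kb, the other genes 15.6 kb, and the hosts of gene-body CHD7 regions with H3K27ac 70.5 kb. A single region was found in 1167 hosts, more than 1 in 339, and at least 5 in 25. Only 15 regions lay in more than 1 gene.

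Hosts often had H3K27ac elsewhere. At an end of the gene, an H3K27ac region found in both libraries was present in 850 hosts (56.4%) and in 47.0% of the other genes, and CHD7 in 53.7% of hosts and 43.5% of the others. Gene length moved with this share: among genes of 10 to 100 kb the values for H3K27ac were 56.8% of hosts and 56.0% of the others, and among genes of 500 kb and over 45.9% and 22.3%. A gene-body CHD7 region with H3K27ac stood in the same gene in 510 hosts (33.9%) and in 7.61% of the other genes. Among genes of 100 kb and over the shares were 47.0% of hosts and 26.99% of the others.

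Lrmda, a gene of melanocyte differentiation, held the most regions lacking H3K27ac, 11 over a gene of 1037 kb, beside 10 CHD7 regions with H3K27ac. Its strongest had folds of 6.05 and 5.93 in libraries 1 and 2, and its lowest value in either library was 2.47. Auts2, a gene of neural development tied to Polycomb complexes, held 10, with folds between 2.301 and 4.61 in library 1 and between 2.16 and 4.48 in library 2. Dnm3, a dynamin gene, held 9 and Rad51b, a gene of homologous recombination, 8. Mecom, which encodes the zinc finger factor EVI1, held 7 with median folds of 3.26 and 3.39. Like Dnm3 and Zfp608, it had neither CHD7 nor H3K27ac at an end.

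Zfp608, a zinc finger gene, was the densest of these hosts, with 7 regions in 105 kb, or 6.70 regions per 100 kb, although each was weak: the median folds were 2.55 and 2.45. Close neighbours were counted as separate regions, which raises this density. On chromosome 18, the region at 54901088 to 54901775 was followed by that at 54901843 to 54902825. Likewise, the region at 54910992 to 54911601 was followed by that at 54911889 to 54912554. The others ranged between 0.588 regions per 100 kb in Robo1 and 1.81 in Dnm3. Robo1, a receptor of the SLIT guidance proteins, held 6, with folds of 3.48 and 4.40 at the strongest. Fggy, a carbohydrate kinase gene, Zfp536, a zinc finger gene of neurons, and Gmds, of GDP-fucose synthesis, held 6 each. Fggy was the only gene of these 10 with 0 CHD7 regions with H3K27ac in its body.

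Gene lists were described by the share of their members that held a region, beside the 6.92% of all protein-coding genes and the 33.7% of those of 100 kb and over. All 414 genes of the 14 lists were found in the gene table. Since long genes hold more of any kind of region, the median length of a list is given with its count, and nothing particular to a list follows from its share.

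Among neural crest specifiers, transcription factor genes of crest induction, 3 of 18 held a region, and the list's median length was 6.81 kb. Of the 3 genes of 100 kb and over in the list, 2 held one. Pax3, a paired-box factor of the early crest, held 4 and no CHD7 region with H3K27ac in its body. Its folds in libraries 1 and 2 were 3.03 and 2.85, 2.71 and 2.82, 3.13 and 2.38, and 2.11 and 2.31, and its regions lay between 20.9 and 78.6 kb from H3K27ac. Sox5, a SoxD factor gene, held 3, with 4.19 and 3.36 at the strongest, beside 6 CHD7 regions with H3K27ac, and Ets1, an ETS factor gene, held 1 with 3.20 and 2.89.

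Cardiac neural crest and outflow tract genes held a region in 2 of 25 cases, at a median length of 19.7 kb, both among the 3 of 100 kb and over. Mef2c, a MADS-box factor of heart and crest development, had 2, and the first of them was strong, with folds of 7.39 and 7.54 (mean 7.46 ± 0.11, SD, n = 2) at 83654876 to 83656027 on chromosome 13, 11.1 kb from a gene end and 74.6 kb from H3K27ac. The second had 3.34 and 3.40. Rarb, a retinoic acid receptor gene, had 3, with 4.515 and 4.34, 4.04 and 3.18, and 2.83 and 2.44, all at least 157 kb from H3K27ac. Neither gene had H3K27ac or CHD7 at an end. Chd7 itself held no region lacking H3K27ac and 2 CHD7 regions with it.

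Axon guidance and semaphorin genes, which steer migrating crest cells and axons, held a region in 21 of 34 cases, 47 regions in all, at a median length of 219 kb. Of the 29 genes of 100 kb and over in the list, 19 held one. Slit3, a secreted ligand of ROBO receptors, had folds of 7.93 and 7.04 at 35697634 to 35698231 on chromosome 11. Dcc, a netrin receptor gene, had 4 regions, of 4.88 and 6.17, 4.05 and 4.89, 4.48 and 3.79, and 3.24 and 3.83, the first of them 753 kb from H3K27ac. Sema3d, a secreted semaphorin gene, had 1 with 4.37 and 5.21. The values of Slit3 exceeded those of Dcc and Sema3d in both libraries.

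Adhesion, synaptic and channel genes were long, and their shares are set beside the 33.7% of genes of 100 kb and over and the 58.6% of those of 500 kb and over. Cadherins and catenins did so in 9 of 28 cases (median length 310 kb), all among the 23 of 100 kb and over. Ctnna2, a neuronal alpha-catenin gene, had 5.31 and 4.33 at its stronger region, Fat3, an atypical cadherin gene, 4.14 and 4.48, and Cdh23, a cadherin of hair cell tip links, 3.66 and 4.62. Of synaptic adhesion and scaffold genes, 16 of 30 held a region (median length 879 kb), all among the 29 of 100 kb and over. Dlgap1, a postsynaptic scaffold gene, had 5.54 and 3.99, Cntn1, a contactin gene, 4.495 and 4.44, and Nrxn3 held 5 regions led by 4.94 and 3.77. Ion channels and neurotransmitter receptors held a region in 10 of 35 cases, or 28.6%, with all 35 at 100 kb and over and a median length of 460 kb, led by Cacna2d3 (4.15 and 4.47) and Cacna2d1 (5.13 and 3.44), auxiliary subunit genes of calcium channels, and Scn2a, a sodium channel gene (2.85 and 4.11).

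Extracellular matrix and integrin genes held a region in 13 of 38 cases (median length 124 kb) and in 10 of the 25 of 100 kb and over. The strongest were in the collagen genes Col25a1 (4.75 and 3.52), Col14a1 (3.60 and 4.40) and Col3a1 (3.22 and 4.41). Smooth muscle genes held one in 2 of 15 cases (median length 33.4 kb), both among the 4 of 100 kb and over. These were Prkg1, the cGMP-dependent kinase of smooth muscle relaxation, with 4.50 and 5.30, and Synpo2, an actin-associated protein gene, with 2.99 and 3.02.

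Genes of BMP, TGF-beta and activin signalling held a region in 7 of 31 cases (median length 87.7 kb), with 4 of the 10 of 100 kb and over. After Acvr1b, the strongest were in Bmpr1b, a BMP receptor gene (3.76 and 3.69), and Smad6, an inhibitory SMAD gene (2.90 and 3.54). WNT genes did so in 8 of 36 cases (45.1 kb) and in 5 of the 11 of 100 kb and over, led by the receptor gene Ror1 (3.48 and 3.96), the ligand gene Wnt5b (4.34 and 2.77) and the planar polarity gene Vangl2 (3.01 and 3.51). The Vangl2 region lay 0.464 kb from H3K27ac. NOTCH, hedgehog and retinoic acid genes did so in 10 of 32 cases (46.0 kb) and in 4 of the 6 of 100 kb and over. Rbpj, the DNA-binding effector of NOTCH, had 4.97 and 6.70, Maml2, its coactivator, 5.83 and 5.39 at the strongest of 3, and Rarg, a retinoic acid receptor gene, 3.23 and 3.39.

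Chromatin regulators held a region in 10 of 36 cases (median length 86.0 kb) and in 8 of the 16 of 100 kb and over. The strongest were in the acetyltransferase gene Kat6b (3.996 and 3.35), the deacetylase gene Hdac7 (4.20 and 2.75) and the SWI/SNF ATPase gene Smarca2 (3.39 and 3.48). Housekeeping genes, with a median length of 10.7 kb, held one in 1 of 27 cases, Ywhaz (3.06 and 2.54), at 0.144 kb from H3K27ac. Adult tissue genes did so in 3 of 29 cases (8.11 kb), the albumin gene Alb (3.75 and 3.67), the astrocyte filament gene Gfap (2.91 and 3.79) and the myelin gene Mbp with 2 regions (3.30 and 2.89 at the stronger). Over all 1506 hosts, the strongest region of a gene had a median mean fold of 3.24, and over the lists this median ranged between 2.80 for the 1 housekeeping gene and 5.95 for the 2 cardiac neural crest genes.

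**Figure D5:**
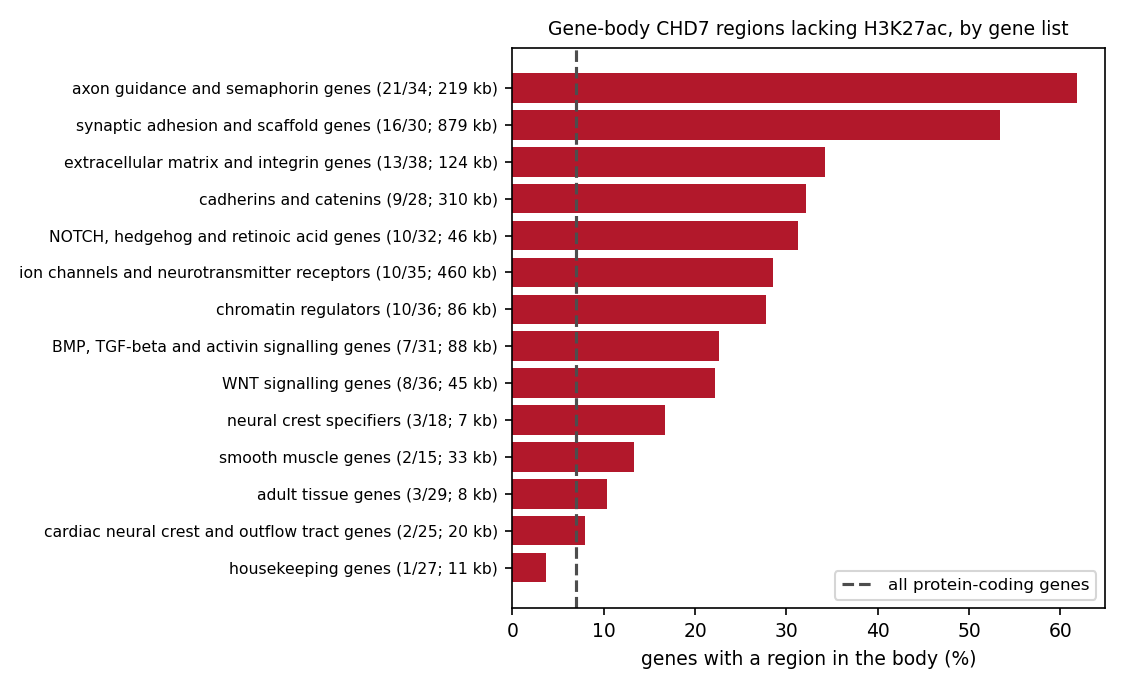
Share of the genes of each list that hold at least 1 gene-body CHD7 region lacking H3K27ac (horizontal axis, percent), with the count, the number of genes in the list and the median gene length in parentheses. The dashed line marks the 6.92% of all protein-coding genes, and the lists run between 1 of 27 housekeeping genes and 21 of 34 axon guidance and semaphorin genes.

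The autosomes were alike in density and the X chromosome stood apart. Chromosomes 1 to 19 held between 16.5 and 27.5 regions lacking H3K27ac per 10 Mb of protein-coding gene body, with 20.8 over all of them, and X held 15 regions, or 3.30 per 10 Mb. Gene-body CHD7 regions with H3K27ac were scarce there too, at 4.62 per 10 Mb against 27.1 on the autosomes, so that 41.7% of the gene-body regions on X lacked H3K27ac, within the range of 34.9% to 51.8% of the autosomes. The sex of the embryos was not given in the sources used here, and its part in the values of X was not tested.

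Non-coding genes and microRNAs overlapped some of the regions. A RefSeq gene of a non-coding type overlapped 156 regions (7.59%), against 10.8% of gene-body CHD7 regions with H3K27ac, and an end of such a gene lay within 1 kb of 4.86%, against 10.9%. Mature microRNAs of 3 genes overlapped the regions. The sequences are from RefSeq on GRCm38.p6, with the seed, bases 2 to 8, in capitals.

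mmu-miR-128-3p (chr9:112118644-112118664, minus strand): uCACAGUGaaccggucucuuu
mmu-miR-128-2-5p (chr9:112118679-112118701, minus strand): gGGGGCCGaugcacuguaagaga
mmu-miR-6993-5p (chr19:10191380-10191402, plus strand): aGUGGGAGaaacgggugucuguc
mmu-miR-6993-3p (chr19:10191419-10191439, plus strand): cUUGCGUUuguuuccucacag
mmu-miR-7653-3p (chr11:78178866-78178887, plus strand): cCCCUACUguuccaccccgccu

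No seed was shared among the 5. Mir128-2, which yields a microRNA abundant in neurons, lies in Arpp21, in a CHD7 region 52.9 kb from the gene ends. The region had folds of 3.60 and 4.11, and its nearest H3K27ac peak lay 12.2 kb away. It was 1159 bp wide, with peaks of 1022 and 394 bp in libraries 1 and 2 whose highest points lay 785 bp apart. The folds are thus those of the merged region and do not place CHD7 at the microRNA in both libraries. Mir6993 lies in Fads1, a fatty acid desaturase gene, with folds of 2.68 and 2.23, and Mir7653 in Tlcd1 with 2.54 and 2.51, where the CHD7 region began within the hairpin. The folds of the region with Mir128-2 were above the medians of all regions in both libraries, and those of the regions with the other microRNA genes were below them.

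The sorted cells were set against their label by H3K27ac at the ends of marker genes, which 47.6% of all protein-coding genes carried in both libraries. It was present in both libraries at 4 of 15 neural crest markers, Sox9, Twist1, Ednrb and Ngfr, and not found at the others, among them Sox10, Tfap2a and Foxd3, so that the crest markers carried it at a share below that of all genes. It was present at 5 of 12 markers of neurons and ganglia, 4 of 9 of glia and melanocyte precursors, 0 of 10 of cardiomyocytes, 0 of 10 of endothelium, 3 of 10 of blood cells, 1 of 10 of epithelium and endoderm and 1 of 8 of mesoderm and skeletal muscle. The part of other cell types in the regions was not tested, and a lack of H3K27ac in the bulk of the sorted cells cannot be told apart from acetylation in a few of them.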

How the data were processed

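CHD7, H3K27ac and input chromatin were each sequenced in 2 libraries. Per the submitters' processing notes, bcl2fastq 2.18.0.12, Bowtie2 2.3.3.1, Picard and MACS2 2.1.2 were used with build mm10. The deposited files are the authors' peak lists, called per library, with the fold enrichment at the summit (a ratio), the p-value and q-value as −log10, an integer score from the q-value, and the summit's offset. Read counts are not in the lists, so sequencing depth is unknown and values carry no counting interval. A deeper library yields more peaks and can lose fewer weak H3K27ac sites, which bears on every region counted as lacking H3K27ac. Whether input served as control in peak calling was not given in the sources used here.

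Several summits listed for 1 interval were joined into 1 peak that took the largest fold and q-value. Chromosomes 1 to 19, X and Y were kept. Overlap meant at least 1 bp. The CHD7 lists held 31873 and 26927 peaks, the H3K27ac lists 24283 and 22686 and the input lists 451 and 512. Overlapping peaks were merged across a group's libraries, and a merged interval with peaks from both was a consensus region. RefSeq genes of GRCm38.p6, the assembly of mm10, gave 21776 protein-coding genes after 111 with starts below position 3000000 (500000 on Y) were left out, and promoter windows gave the strand. Between classes of regions, fold was compared within each library, and the differences were taken over the 2 libraries by an exact paired permutation test (scipy 1.17.1, Python 3.11.15, pandas 2.3.3). Regions were ranked and binned by the mean fold of both libraries. The libraries' folds of the same region were also set beside each other, as a description. Overlap, distance and class functions were tested on simulated data. The regions, gene lists and tests were chosen with earlier results of these data known. Named genes were the 10 strongest regions, the 10 genes with most regions, up to 3 genes per list by strongest region, the regions nearest the 1 kb limit, and Chd7; the promoter and microRNA examples, the most remote and the weakest regions were added after their values were seen. No genome sequence was used, so sequence content was described in the promoter windows only. A further gene list and a single gene of another are not reported here.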

Additional observations from a re-analysis of the deposited data

How the results depend on the processing

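The number of regions and of host genes, 2056 and 1506, stayed within 1.5 times under 9 of 13 alternatives each. They were 137 and 135 with CHD7 peaks of a −log10 q of at least 10, and 6664 and 3654 with a peak in either CHD7 library. Leaving out 1 library at a time gave 2318 to 5203 regions and 1668 to 3092 genes, with 3806 regions in 2441 genes without CHD7 library 1 and 5203 in 3092 without CHD7 library 2, since a region then needed a peak in a single list. The log2 fold difference between regions without and with H3K27ac, −0.08, reversed to 0.17 with the q limit, and to 0.16 with the q limit and regions with an input peak kept, chosen after seeing the data (the cause was not tested). It kept its sign under the other 13 alternatives, and ran between −0.10 and −0.09 when libraries were left out. The width difference of −86.0 bp kept its sign under all 13, between −106 and −91.5 bp when libraries were left out.

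The share of gene-body peaks lacking H3K27ac, 54.6%, was 58.3% with a stricter overlap of 50% of the shorter peak, 28.8% with the q limit, 50.8% at more than 500 bp and 61.4% at more than 10 kb from gene ends, 46.2% with no H3K27ac peak allowed within 1 kb, and between 52.2% and 61.5% with libraries left out. For the pairing of libraries by replicate number, H3K27ac judged in the library of the same number as a replicate block gave 60.7% and a log2 fold difference of −0.09. Nothing says that the numbers mark shared cells. The median distance to H3K27ac, 29.3 kb, was 26.6 kb with the stricter overlap, 32.5 kb at more than 2.5 kb and 39.9 kb at more than 10 kb from gene ends, 35.7 kb with no H3K27ac within 1 kb, 26.97 kb with a peak in either CHD7 library, and between 25.4 and 29.0 kb with libraries left out. A −log10 q of at least 10 leaves few CHD7 peaks, and absence from a peak list is not absence of acetylation.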
